A study of Mus musculus with 24 samples.

Results

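Homeostatic astrocyte genes are described here in medial prefrontal cortex samples that all carry the genotype label 5xFAD. The set holds 10 genes, Aqp4, Slc1a2, Slc1a3, Aldh1l1, Gja1, Gjb6, Sox9, Glul, S100b and Aldoc, taken by symbol from a gene-level count table of 56750 entries. All 10 were found and all 10 were among the 20354 genes that passed a filter on low counts. The 24 libraries of bulk total RNA form 6 groups of 4 by their titles. GH_Con and SI_Con carry the treatment labels control and SI, GH_EE and SI_EE the label EE, and GH_WT and SI_WT the label WT. From the series title, SI stands for social isolation and EE for an enriched environment, while the resocialization it also names is tied to no group by the labels. What GH means is not stated, and neither is WT, which stands beside a genotype label of 5xFAD in all 6 groups; the names GH and WT arm are kept as they are. The 5xFAD line carries human transgenes with familial Alzheimer's disease mutations, driven in neurons by the Thy1 promoter. The labels give neither age nor sex. They also leave unsaid whether the libraries are from separate mice, and the p-values then reflect only how far these 24 samples scatter, which may be technical.

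Astrocytes clear glutamate and potassium from the space around synapses, turn glutamate into glutamine for return to neurons, and move water and metabolites between blood vessels and neurons. The genes of that housekeeping programme include the glutamate transporters, glutamine synthetase, the water channel of the endfeet on vessels, and the connexins that join astrocytes into a network. In Alzheimer's disease models these genes are read as the counterpart of the reactive programme marked by Gfap. In bulk tissue fewer astrocytes and less RNA per astrocyte cannot be told apart.

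None of the 10 genes differed between groups past the threshold, an adjusted p under 0.05 over all genes in edgeR's quasi-likelihood test. This held for the test of any difference among the 6 groups, in which 0.0491% of all genes passed, for SI_EE against GH_EE and GH_EE against GH_Con, in each of which 0.00491% passed, and for the other 7 comparisons, in which 0% passed. DESeq2 called 0 of the 10 in the same comparisons. The values therefore describe levels and their spread, in CPM (read counts scaled to library size). The widest differences between group means were those of Aqp4 and Sox9, which lay lower in SI_Con than in GH_Con and higher in SI_EE than in SI_Con. The level of Slc1a2, Slc1a3, Aqp4, S100b, Aldoc and Glul in the library SI_EE 1 lay outside the range of all other libraries, so fold changes and counts that involve SI_EE are given with and without it.

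**Figure D1:**
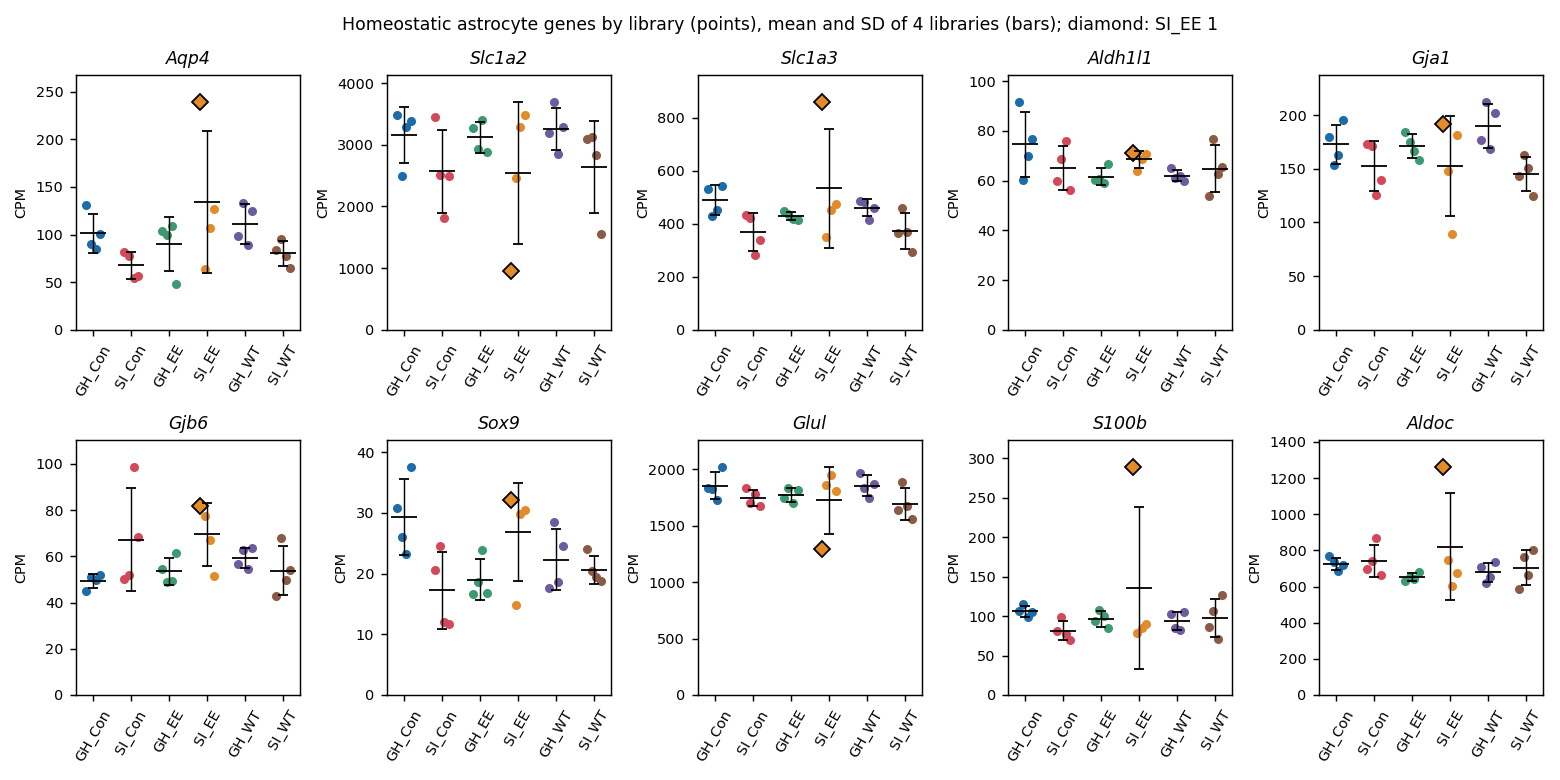
Level of each of the 10 genes in CPM (vertical axes starting at 0) in the 24 libraries, by group on the horizontal axis, with points for libraries and bars for the mean and SD of 4. SI_EE 1, drawn as a diamond, is highest for Aqp4, Slc1a3, S100b and Aldoc and lowest for Slc1a2 and Glul.

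Total counts ran from 33683587 to 51274917 per library, and no 2 libraries held identical values. SI_EE 1 held transcripts of cerebellum: Gabra6, a receptor subunit of cerebellar granule cells, stood at 342 CPM and was no higher than 1.13 CPM in any of the other 23. Pcp2, which marks Purkinje cells, stood at 242 CPM beside a maximum of 2.17 CPM elsewhere. Summed markers of forebrain pyramidal neurons were at 1647 CPM in it and at 4546 to 6259.7 CPM in the others. Gdf10, a gene of cerebellar Bergmann glia, was at 106 CPM there and at most 6.74 CPM elsewhere. Agt, which astrocytes of deep brain regions carry more than those of cortex, was at 86.6 CPM in SI_EE 1, 48.7 in GH_WT 4 and 27.5 in GH_WT 2, and at most 19.7 in the rest. Among these it was at 6.70, 14.6, 19.7 and 18.5 CPM in SI_Con 1 to 4, and from 4.94 to 6.91 CPM in GH_Con. Mfge8, more abundant in cortical astrocytes, was lowest in SI_EE 1, at 51.2 CPM. GH_WT 2 and GH_WT 4 held the habenula gene Gpr151 at 10.2 and 6.45 CPM, against at most 1.36 CPM in the others. In 4 libraries, GH_Con 2, SI_Con 2, SI_Con 3 and SI_WT 4, long transcripts were low: across 13810 genes, Spearman's rho of exon length with the deviation from the gene's mean ran from -0.50 to -0.36 there and from -0.11 to 0.36 in the others. The part that other tissue or transcript length plays in the results was not tested beyond the values given with libraries left out.

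Levels of different genes were compared per kilobase of exon, since reads scale with length. Glul was the most abundant, at 534 CPM per kilobase averaged over the 24 libraries, followed by Aldoc at 221 and Slc1a2 at 219.5. Without SI_EE 1 the order of the latter 2 was reversed, with Slc1a2 at 226 and Aldoc at 214. S100b at 68.6, Slc1a3 at 51.7 and Gjb6 at 22.0 formed the middle of the range. Gja1 at 16.0, Aqp4 at 15.7, Aldh1l1 at 14.6 and the transcription factor Sox9 at 5.46 were lowest. Neighbours in that order whose means lie within the larger of their SDs over the 24 libraries are Aldoc and Slc1a2, S100b and Slc1a3, Gja1 and Aqp4, and Aqp4 and Aldh1l1. Without SI_EE 1, S100b (63.1 ± 9.84) and Slc1a3 (49.6 ± 7.76, SD, n = 23) no longer lay that close. The spread between libraries followed another order. Over the 23 libraries other than SI_EE 1, the coefficient of variation of CPM was widest for Sox9, at 29%, and Aqp4, at 26.7%, and narrowest for Aldoc, at 9.57%, and Glul, at 6.10%.

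Slc1a2 and Slc1a3 encode the main glial glutamate transporters, known as GLT-1 and GLAST, and Glul encodes glutamine synthetase, which uses the glutamate they bring in. Slc1a2 lies on chromosome 2 (GRCm38, chr2:102658659-102790784, plus strand) with 13133 bases of exon, the longest of the set, and Slc1a3 on chr15:8634124-8710764, minus strand, with 8537. The 250 bases before the RefSeq start of each (RefSeq table of GRCm38.p6) are shown because these transporters varied together across libraries outside SI_EE 1. Capitals mark matches to motifs searched on both strands. These were ACAAT, a motif of SOX factors, its second form with the letters ACAAAG, the NFI factor motif with the letters TTGGC, and the TATA box with the letters TATAAA.
Slc1a2, chr2:102706188-102706437, plus strand: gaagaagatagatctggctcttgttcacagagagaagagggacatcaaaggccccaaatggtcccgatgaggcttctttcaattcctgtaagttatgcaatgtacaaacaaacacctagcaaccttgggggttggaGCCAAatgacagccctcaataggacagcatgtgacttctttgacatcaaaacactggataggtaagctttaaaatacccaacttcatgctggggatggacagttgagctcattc
Slc1a3, chr15:8710808-8711057, minus strand: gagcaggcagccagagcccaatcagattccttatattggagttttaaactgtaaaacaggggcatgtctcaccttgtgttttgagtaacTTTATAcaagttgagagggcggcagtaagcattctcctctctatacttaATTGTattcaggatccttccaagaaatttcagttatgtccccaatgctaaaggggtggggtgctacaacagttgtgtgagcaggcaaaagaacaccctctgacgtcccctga
In the Slc1a2 window the 1 match is an NFI motif on the reverse strand, at position -114 from the start. In the Slc1a3 window an ACAAT match on the reverse strand lies at position -112 and a TATA box match, also on the reverse strand, at position -161. Of 32851 windows of the same length, 41.5% hold the NFI motif, 27.7% the first SOX motif, 16.5% the second and 12.4% the TATA box letters. The RefSeq start used for Slc1a2 lies within the gene as GENCODE draws it.

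Slc1a2 was at 3485, 2494, 3285 and 3386 CPM in GH_Con 1 to 4 and at 3456, 2509, 1819.8 and 2499 CPM in SI_Con 1 to 4. It was at 3266, 2929, 3396 and 2880.1 CPM in GH_EE and at 955, 2452, 3293 and 3480.5 CPM in SI_EE. Of the WT arm, GH_WT was at 3198, 3691, 2852 and 3281 CPM and SI_WT at 3089, 3118, 2829 and 1546 CPM. Every pair of groups overlapped, and the lowest libraries after SI_EE 1 were SI_WT 4, SI_Con 3, SI_EE 2 and GH_Con 2. Of these, 3 are among the libraries in which long transcripts were low. Group means ran from 2545 ± 1150.4 CPM in SI_EE (SD, n = 4; 3075 ± 548, n = 3, without SI_EE 1) to 3255 ± 345 CPM in GH_WT (SD, n = 4). The log2 fold change of Slc1a2 in SI_Con against GH_Con was -0.30. It was -0.18 without the 4 libraries with low long transcripts and ran from -0.46 to -0.16 with a single library left out in turn.

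Slc1a3 was at 531, 429, 451 and 540.4 CPM in GH_Con and at 431, 422, 281 and 337 CPM in SI_Con. The highest library of SI_Con lay just above the lowest of GH_Con. Slc1a3 was at 448, 437, 417 and 412 CPM in GH_EE, the tightest group, and at 858, 348, 450.4 and 474 CPM in SI_EE. GH_WT held 486, 479.7, 413 and 461 CPM and SI_WT 364, 459.7, 370.2 and 294 CPM. The log2 fold change in SI_Con against GH_Con was -0.41 ± 0.20 (SE), with an unadjusted p of 0.053 in edgeR and an adjusted p of 0.77. In SI_EE against SI_Con it was 0.53 ± 0.20 (SE; edgeR unadjusted p = 0.014, adjusted p = 0.27), and 0.22 ± 0.15 without SI_EE 1.

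SI_EE 1 set the 2 transporters apart. Its Slc1a3 was 1.99 times the median of the other 23 libraries and its Slc1a2 0.306 times. Per kilobase of exon, Slc1a2 stood at 3.41 to 5.52 times Slc1a3 in the other libraries and at 0.723 times in SI_EE 1. In cerebellum, Bergmann glia are known for high GLAST and low GLT-1, while forebrain astrocytes carry mostly GLT-1. The mean ratio was 3.71 ± 1.99 in SI_EE (SD, n = 4), whose other 3 libraries stood at 4.58 to 4.77, and from 4.21 to 4.73 in the other 5 groups.

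**Figure D2:**
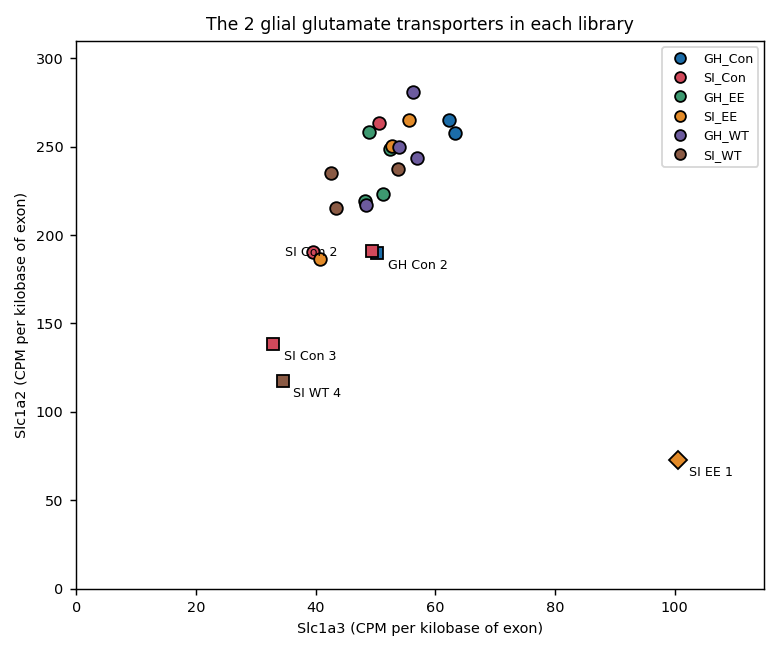
Slc1a2 (vertical axis) against Slc1a3 (horizontal axis), both in CPM per kilobase of exon, with a point for each of the 24 libraries coloured by group. Squares mark the 4 libraries in which long transcripts were low and the diamond marks SI_EE 1, which alone held less Slc1a2 than Slc1a3.

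Glul (chr1:153899944-153909723, plus strand) varied least. It was at 1836, 1825, 1732 and 2019 CPM in GH_Con, at 1830.3, 1703, 1780.0 and 1677 CPM in SI_Con and at 1746, 1835, 1701 and 1817 CPM in GH_EE. SI_EE held 1290.0, 1859, 1947 and 1806 CPM, and SI_EE 1 was the lowest library of all, at 0.71 times the median of the others. GH_WT held 1971, 1838, 1743 and 1867 CPM and SI_WT 1637, 1891, 1677 and 1563 CPM. All pairs of groups overlapped, and the log2 fold changes of Glul in the 7 comparisons between 2 groups ran from -0.13 to 0.00.

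Aqp4 (chr18:15389496-15410982, minus strand) encodes aquaporin-4, the water channel of astrocyte endfeet. It was at 131, 90.1, 84.4 and 101 CPM in GH_Con and at 81.9, 77.7, 53.9 and 56.8 CPM in SI_Con. All 4 SI_Con libraries lay below all 4 GH_Con libraries, by a gap of a few CPM between the nearest of them. Aqp4 was at 104, 99.8, 109 and 48.6 CPM in GH_EE, at 239, 63.7, 107 and 127 CPM in SI_EE, at 98.3, 133, 89.5 and 125 CPM in GH_WT and at 83.8, 95.3, 77.1 and 64.5 CPM in SI_WT. SI_Con also lay below all of GH_WT, and all other pairs of groups overlapped. GH_EE 4 was the lowest of the 24 libraries. In rising order the group means were SI_Con (67.6 ± 14.3), SI_WT (80.2 ± 12.9), GH_EE (90.4 ± 28.1), GH_Con (101 ± 20.6), GH_WT (111 ± 20.8) and SI_EE (134 ± 74.8 CPM, SD, n = 4), and SI_EE without SI_EE 1 was at 99.4 ± 32.4 CPM (n = 3). Each neighbouring pair in that order differed by less than the larger of its SDs.

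Aqp4 had a log2 fold change of -0.59 ± 0.30 (SE) in SI_Con against GH_Con (edgeR unadjusted p = 0.060, adjusted p = 0.77). Without SI_EE 1 the same fold change had an SE of 0.24 and an unadjusted p of 0.021 in edgeR. In SI_EE against SI_Con it was 0.99 ± 0.30 (SE; edgeR unadjusted p = 0.0031, adjusted p = 0.20) and 0.56 ± 0.25 without SI_EE 1 (edgeR adjusted p = 0.46). Leaving out SI_EE 2, the lowest library of that group, gave 1.22 and an adjusted p of 0.047 in edgeR, the only call of any member under any alternative tried, with SI_EE 1 still in. The SI_EE libraries 3 and 4 lay above all of SI_Con and SI_EE 2 lay within it.

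Gja1 and Gjb6 encode connexin 43 and connexin 30, the gap junction proteins of astrocytes. Gja1 lies at chr10:56377330-56402513, plus strand, and Gjb6 at chr14:57123303-57133611, minus strand. The 250 bases before their RefSeq starts are shown because the 2 connexins did not vary together.
Gja1, chr10:56377050-56377299, plus strand: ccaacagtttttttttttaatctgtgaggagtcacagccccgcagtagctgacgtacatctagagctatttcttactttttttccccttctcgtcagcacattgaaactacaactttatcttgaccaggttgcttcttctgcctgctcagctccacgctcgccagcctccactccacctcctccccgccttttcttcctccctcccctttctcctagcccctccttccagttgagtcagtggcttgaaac
Gjb6, chr14:57133612-57133861, minus strand: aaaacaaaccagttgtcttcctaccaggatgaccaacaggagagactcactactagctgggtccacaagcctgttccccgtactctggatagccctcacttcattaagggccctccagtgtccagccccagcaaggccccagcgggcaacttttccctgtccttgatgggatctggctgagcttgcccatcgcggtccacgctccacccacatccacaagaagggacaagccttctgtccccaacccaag
None of the motif letters given for the transporters occurs in either window.

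Gjb6 was at 45, 51, 49.6 and 51.9 CPM in GH_Con and at 50.2, 51.9, 98.5 and 68.3 CPM in SI_Con. SI_Con 3 and SI_Con 4 were high and the other SI_Con libraries lay within or at the GH_Con range. Gjb6 was at 54.4, 48.7, 49.2 and 61.5 CPM in GH_EE, at 81.8, 77.6, 67.0 and 51.5 CPM in SI_EE, at 56.5, 62.5, 54.3 and 63.5 CPM in GH_WT and at 43.0, 68.1, 49.9 and 54.1 CPM in SI_WT. All GH_WT libraries lay above all GH_Con libraries, the only member of which this was so, where 4.23% of all genes did not overlap between these groups. The log2 fold change in SI_Con against GH_Con was 0.45 ± 0.18 (SE; edgeR unadjusted p = 0.021, adjusted p = 0.64), the only positive one besides that of Aldoc. Without SI_Con 3 it was 0.21. Gjb6 in SI_EE against GH_EE was at 0.38 ± 0.18 (SE; edgeR unadjusted p = 0.046, adjusted p = 0.57), and at 0.29 ± 0.19 without SI_EE 1.

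Gja1 was at 179, 153, 163 and 195 CPM in GH_Con, at 173, 172, 126 and 139 CPM in SI_Con and at 185, 175, 167 and 158 CPM in GH_EE. In SI_EE it was at 192, 148, 89.0 and 181 CPM, with SI_EE 3 the lowest of the 24 libraries. Gja1 was at 177, 212, 168 and 202 CPM in GH_WT and at 143, 163, 151 and 125 CPM in SI_WT, and these groups did not overlap. The log2 fold change in SI_WT against GH_WT was -0.39 ± 0.17 (SE; edgeR unadjusted p = 0.032, adjusted p = 0.88). Without SI_EE 1, GH_WT 2 and GH_WT 4 it was -0.25. In that comparison all 10 genes of a thalamus and habenula list also had an unadjusted p under 0.05 and lay lower in SI_WT, with summed levels of 101 to 471 CPM in GH_WT and 84.5 to 104 CPM in SI_WT. All 8 genes of a meninges and fibroblast list lay lower in SI_WT as well, each with an unadjusted p under 0.05, with summed levels of 25.3 to 65.6 CPM in GH_WT and 13.6 to 23.2 CPM in SI_WT. All 8 of an ependymal and choroid plexus list did too, 6 of them with such a p, with summed levels of 13.5 to 384 CPM and 11.9 to 20.4 CPM. No gene of the 3 lists was at 0 in all 4 libraries of a group, and their part in the Gja1 difference was not tested. Per kilobase of exon, Gja1 over Gjb6 ran from 0.333 in SI_Con 3 and 0.346 in SI_EE 3 to 1.04 in GH_Con 1. SI_EE 3 reached its low ratio mainly through Gja1, with Gjb6 at 67.0 CPM also above its median of 54.2 CPM over the 24 libraries. SI_Con 3 reached its low ratio mainly through Gjb6.

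Sox9 (chr11:112782224-112787760, plus strand) encodes a transcription factor that in adult brain is largely confined to astrocytes. It was at 30.8, 26.1, 23.2 and 37.5 CPM in GH_Con and at 20.6, 24.5, 12 and 11.8 CPM in SI_Con. It was at 16.7, 18.6, 23.9 and 16.7 CPM in GH_EE and at 32.2, 14.9, 29.8 and 30.6 CPM in SI_EE. GH_WT held 17.6, 28.5, 18.7 and 24.5 CPM and SI_WT 24, 20.4, 19.4 and 18.8 CPM. GH_Con 4 was the highest library and SI_Con 4 and SI_Con 3 the lowest, and every pair of groups overlapped. Of the 3 SI_EE libraries near 30 CPM, 1 was SI_EE 1, and the fourth, SI_EE 2, was close to the lower SI_Con libraries.

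Sox9 had a log2 fold change of -0.77 ± 0.25 (SE) in SI_Con against GH_Con (edgeR unadjusted p = 0.0050, adjusted p = 0.55) and ran from -0.99 to -0.62 with a library left out in turn. In GH_EE against GH_Con it was -0.63 ± 0.25 (SE; edgeR unadjusted p = 0.018, adjusted p = 0.68). In SI_EE against SI_Con it was 0.64 ± 0.25 (SE; edgeR unadjusted p = 0.017, adjusted p = 0.29), and 0.55 without SI_EE 1. The EE difference therefore had opposite signs in the 2 housing arms. The test of that difference, the EE by housing interaction (the EE difference in SI minus that in GH), gave 1.27 ± 0.35 (SE) for Sox9, with an edgeR unadjusted p of 0.0015 and an adjusted p of 0.51, and 1.18 ± 0.36 without SI_EE 1. GH_Con and SI_Con enter several of these comparisons, so the values are not independent of each other.

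Aldh1l1 (chr6:90486427-90600203, plus strand) encodes a folate enzyme used as a general astrocyte marker, Aldoc (chr11:78322968-78327781, plus strand) the brain form of the glycolytic enzyme aldolase, and S100b (chr10:76253853-76261159, plus strand) a calcium-binding protein that some oligodendrocytes also express. Aldh1l1 was at 91.5, 60.2, 69.7 and 76.5 CPM in GH_Con, and all other groups had means from 61.5 to 68.6 CPM. The GH_EE libraries held 58.8 to 66.5 CPM and the GH_WT libraries 59.8 to 65.2 CPM. Among isolated groups the ranges were 63.7 to 71.1 CPM (SI_EE), 56.1 to 75.7 CPM (SI_Con) and 54.0 to 76.8 CPM (SI_WT). GH_Con 1 was the highest library and every group overlapped with GH_Con. The log2 fold change of Aldh1l1 was -0.28 ± 0.12 (SE) in GH_EE against GH_Con (edgeR unadjusted p = 0.029, adjusted p = 0.72) and -0.27 ± 0.12 in GH_WT against GH_Con (edgeR unadjusted p = 0.035, adjusted p = 1.0). In SI_Con against GH_Con it was -0.20, and -0.44 without the 4 libraries with low long transcripts. Without GH_Con 1 these values were -0.16, -0.15 and -0.08, in that order.

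S100b was at 106, 116, 98.9 and 105 CPM in GH_Con and at 80.5, 98.4, 77.6 and 69.0 CPM in SI_Con, groups that did not overlap, though SI_Con 2 came within 1 CPM of GH_Con 3. It was at 288, 78.7, 85.3 and 89.5 CPM in SI_EE, where SI_EE 1 held 3.07 times the median of the other 23 libraries. Its ranges were 84.3 to 107 CPM in GH_EE, 82.5 to 105 in GH_WT and 70.7 to 126 in SI_WT. For SI_EE against SI_Con the log2 fold change of S100b was 0.74 ± 0.29 (SE; edgeR unadjusted p = 0.020, adjusted p = 0.31), and 0.07 ± 0.15 without SI_EE 1. In SI_EE against GH_EE it was 0.49, and -0.19 without SI_EE 1, so the sign rested on that library.

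Aldoc was at 766, 734, 684 and 717 CPM in GH_Con and at 629, 653, 641 and 681 CPM in GH_EE. These groups did not overlap, with the highest GH_EE library just under the lowest GH_Con library, and the log2 fold change was -0.16. Aldoc in SI_EE 1 was at 1259.6 CPM, 1.84 times the median of the others, and its range over all other libraries was 588 to 866 CPM, with SI_Con 3 the highest.

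Across comparisons the 10 genes were read against all 20354 genes. In SI_Con against GH_Con, 8 of the 10 had a negative log2 fold change and the median was -0.25, beside 0.00 for all genes. Of the members, 2 (Sox9 and Gjb6, in opposite directions) had an unadjusted p under 0.05, where 6.53% of all genes did. Without SI_EE 1, which is in neither group, these were 5, where 8.50% of all genes had such a p. Aqp4, Slc1a3, Sox9 and S100b had negative and Gjb6 positive fold changes. Their fold changes moved little. That of S100b was -0.39 in both fits, with an SE of 0.29, and of 0.14 without SI_EE 1. Aqp4 and S100b did not overlap between the groups, as was true of 4.56% of all genes. Other glial lists had negative fold changes in the same comparison. All 10 oligodendrocyte genes did, 8 of them with an unadjusted p under 0.05, with summed levels of 4538 to 6043 CPM in GH_Con and 3760 to 4145 CPM in SI_Con, and no gene of that list was at 0. All 8 microglia genes did too, 1 of them with such a p. Their summed levels were 290.0 to 476 CPM in GH_Con and 212 to 332 CPM in SI_Con. Lists of neurons and other regions went both ways. All 8 striatum genes were negative, with summed levels of 1193 to 1379 CPM in GH_Con and 682 to 1201 CPM in SI_Con. Of 9 cerebellar genes 8 were negative, and no gene of these 2 lists had an unadjusted p under 0.05. In the thalamus and habenula list and in the forebrain pyramidal neuron list, 7 of 10 genes were positive. Of 8 ependymal and choroid plexus genes 5 were positive, with a median of 0.94 and none with an unadjusted p under 0.05. Their summed levels were 21.7 to 84.9 CPM in GH_Con and 33.7 to 1092 CPM in SI_Con, highest in SI_Con 4. The part of glial content or of other tissue in the values of the 10 genes was not tested.

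Between SI_EE and SI_Con, 8 of the 10 were positive with a median of 0.11 beside 0.01 for all genes, and 4 (Aqp4, Slc1a3, S100b and Sox9) had an unadjusted p under 0.05, where 12.6% of all genes did. Without SI_EE 1, 7 were positive with a median of 0.09, and 2 (Aqp4 and Sox9) had such a p, where 10.5% of all genes did. No member had groups that did not overlap, where 4.63% of genes did. All 9 cerebellar genes that could be tested were higher in SI_EE with an unadjusted p under 0.05, and their summed level was 4763 CPM in SI_EE 1.

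In SI_EE against GH_EE, 7 were positive with a median of 0.32 beside 0.02 for all genes, and 0.06 without SI_EE 1. Gjb6 alone had an unadjusted p under 0.05, where 8.70% of all genes did, and none did without SI_EE 1, where 3.72% of all genes did. No member had groups that did not overlap, where 4.36% of genes did. In SI_WT against GH_WT, 7 were negative with a median of -0.14 beside 0.00 for all genes. Gja1 alone had an unadjusted p under 0.05, where 5.37% of all genes did, and it alone did not overlap, as was true of 3.60% of genes. Without SI_EE 1, which is in neither group, Slc1a3 joined it at -0.31 in both fits, where 7.22% of all genes had such a p. With GH_WT 2 and GH_WT 4 also left out, 0 of the 10 had such a p in edgeR, where 2.69% of all genes did, and 6 were negative with a median of -0.09.

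In GH_EE against GH_Con, 9 were negative, all but Gjb6, with a median of -0.15 beside -0.02 for all genes. Sox9 and Aldh1l1 had an unadjusted p under 0.05, where 6.32% of all genes did, and Aldoc did not overlap, where 8.55% of genes did. In GH_WT against GH_Con, 5 were positive and 5 negative with a median of -0.04 beside -0.01 for all genes, and Aldh1l1 alone had an unadjusted p under 0.05, where 3.42% of all genes did. Without SI_EE 1, GH_WT 2 and GH_WT 4, 8 were negative with a median of -0.10. In SI_WT against SI_Con the split was again 5 and 5 with a median of 0.00, no member had an unadjusted p under 0.05 where 3.84% of all genes did, and none had groups that did not overlap where 2.11% did.

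In the EE by housing interaction, 9 of the 10 were positive with a median of 0.33 beside 0.01 for all genes. The 5 with an unadjusted p under 0.05 were Sox9, Aqp4 (1.16), Slc1a3 (0.72), S100b (0.88) and Aldh1l1 (0.35), where 7.74% of all genes had such a p. Without SI_EE 1, 8 were positive with a median of 0.24, and 2 (Sox9 and Aqp4, the latter at 0.73) had such a p, where 6.38% of all genes did. The others of the 5 were then at 0.40 (Slc1a3), 0.20 (S100b) and 0.34 (Aldh1l1, whose unadjusted p in edgeR was 0.060). In the WT arm by housing interaction 6 were positive with a median of 0.06 beside 0.00 for all genes, and Gjb6 alone, at -0.59 ± 0.25 (SE), had an unadjusted p under 0.05 in edgeR, where 4.52% of all genes did. It was -0.34 without SI_Con 3. S100b (0.44 in both fits) joined Gjb6 with SI_EE 1, in none of the groups compared, left out. Of all genes, 5.85% then had such a p. In the test of any difference among the groups, Sox9 (edgeR unadjusted p = 0.037) and Aqp4 (0.040) were under 0.05, where 8.23% of all genes were. Without SI_EE 1 only Slc1a3 was (0.042), where 7.89% of all genes were.

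**Figure D3:**
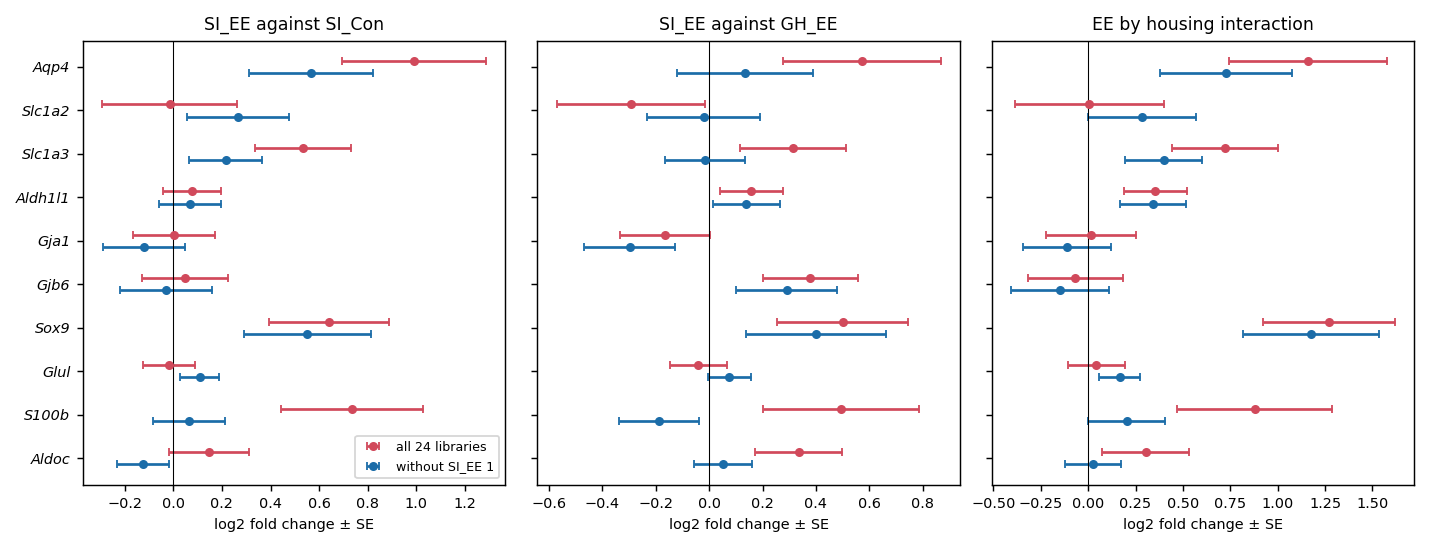
Log2 fold change with its SE (horizontal axes) for each of the 10 genes in 3 comparisons that involve SI_EE, fitted with all 24 libraries and without SI_EE 1. In SI_EE against SI_Con, S100b moves from 0.74 to 0.07 and Sox9 from 0.64 to 0.55.

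A list of 30 other astrocyte homeostasis genes (potassium and sodium transport, GABA and amino acid uptake, and adhesion genes among them) was read the same way, and none of them passed the threshold in any comparison. In SI_Con against GH_Con 23 of the 30 had negative fold changes with a median of -0.20, and 6 of these had an unadjusted p under 0.05, where 6.53% of all genes did. Without SI_EE 1, which is in neither group, 13 had such a p with a median of -0.21, where 8.50% of all genes did. In SI_WT against GH_WT 25 were negative with a median of -0.14, and in GH_EE against GH_Con 26 with a median of -0.11. The comparison of SI_EE with SI_Con had 20 positive with a median of 0.18, and 7 of these had an unadjusted p under 0.05, where 12.6% of all genes did. Without SI_EE 1, 21 were positive with a median of 0.09 and 2 had such a p, where 10.5% of all genes did. Hepacam, an adhesion protein that anchors the endfoot chloride channel complex, had the lowest p of the list in the test of any difference (edgeR unadjusted p = 0.028, adjusted p = 0.55). It was at 88.5 ± 8.89 CPM in GH_Con and 77.0 ± 1.59 in SI_Con (SD, n = 4). The highest and lowest group means of Hepacam were 91.2 ± 8.15 CPM in GH_WT and 74.1 ± 3.84 in SI_WT. GH_EE was at 80.8 ± 6.89 CPM and SI_EE at 88.4 ± 11.8 CPM, with SI_EE 1 at 102 CPM. Slc6a11, the GABA transporter GAT-3, was highest in GH_WT 4 and GH_WT 2, at 267 and 228 CPM, and its range in the others was 59.7 to 166 CPM.

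Of 17 reactive astrocyte genes, 10 were positive in SI_Con against GH_Con, where 50.1% of all genes were. Without the 4 libraries with low long transcripts 7 were positive, where 9959 of 21178 genes were, and the median moved from 0.14 to -0.10. In SI_EE against GH_EE 16 were (14 without SI_EE 1), where 52.9% of all genes were. None passed the threshold. In SI_Con against GH_Con 3 had an unadjusted p under 0.05, all negative, where 6.53% of all genes did. In SI_EE against GH_EE 3 did, 2 of them positive, where 8.70% of all genes did. Without SI_EE 1 it was 0, where 3.72% of all genes did. Gfap, the filament protein of reactive astrocytes, was at 477, 343, 177 and 170.2 CPM in GH_Con and at 99.9, 163, 132 and 78.3 CPM in SI_Con. The SI_Con libraries all lay below those of GH_Con, and the log2 fold change was -1.30 ± 0.45 (SE; edgeR unadjusted p = 0.0090, adjusted p = 0.57). Its widest spread within a group was in GH_Con, where GH_Con 1 and GH_Con 2 were high. Vim, another filament gene, was at 103 CPM in SI_EE 1 and at most 41.5 CPM in the others. The adhesion receptor gene Cd44 was likewise highest in SI_EE 1, at 7.74 CPM.

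The 10 genes did not vary as a block. Of their 45 pairs, 11 had a Pearson correlation of log2 CPM with an adjusted permutation p under 0.05 over the 24 libraries, 9 positive and 2 negative, and 11 also over the 23 without SI_EE 1. On deviations from the group means 3 pairs did. Pairs of genes outside the set were not tested, so no share over all genes stands beside these counts. Aqp4 and Slc1a3 had r = 0.86 (permutation p = 1e-05, the smallest that 100000 resamples can give, adjusted 0.00045) and Spearman's rho = 0.83 (permutation p = 1e-05) over the 24 libraries, and r = 0.86 without the 2 libraries farthest from the median of Aqp4. Without SI_EE 1 it was 0.77, and on deviations from the group means, also without SI_EE 1, 0.69. Aqp4 and Sox9 had r = 0.74 (permutation p = 5e-05, adjusted 0.0011) and rho = 0.70 (permutation p = 0.00019), and r = 0.75 without those 2 libraries. Libraries that were high in Aqp4 were thus high in Slc1a3 and Sox9 as well.

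Slc1a2 and Slc1a3 had r = -0.07 over the 24 libraries (permutation p = 0.72, adjusted 0.81; rho = 0.57) and r = 0.85 over the 23 without SI_EE 1 (permutation p = 1e-05, adjusted 0.00045; rho = 0.79). Without the 2 libraries farthest from the median of Slc1a2 as well it was 0.70, and without SI_EE 1 and the 4 libraries with low long transcripts 0.80 over 19 libraries. Slc1a2 and Aldoc had r = -0.83 over the 24 libraries (permutation p = 0.00016, adjusted 0.0018; rho = -0.44, permutation p = 0.035). Without SI_EE 1 it was -0.60, and over those 19 libraries -0.08, so the relation rested on the libraries left out. Aldoc has 3263 bases of exon and Slc1a2 13133, and the part of transcript length in this relation was not tested. Gja1 and Gjb6 had r = -0.24 (permutation p = 0.25, adjusted 0.42; rho = -0.09, permutation p = 0.67). These libraries share tissue content and depth, and a correlation describes them only.

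**Figure D4:**
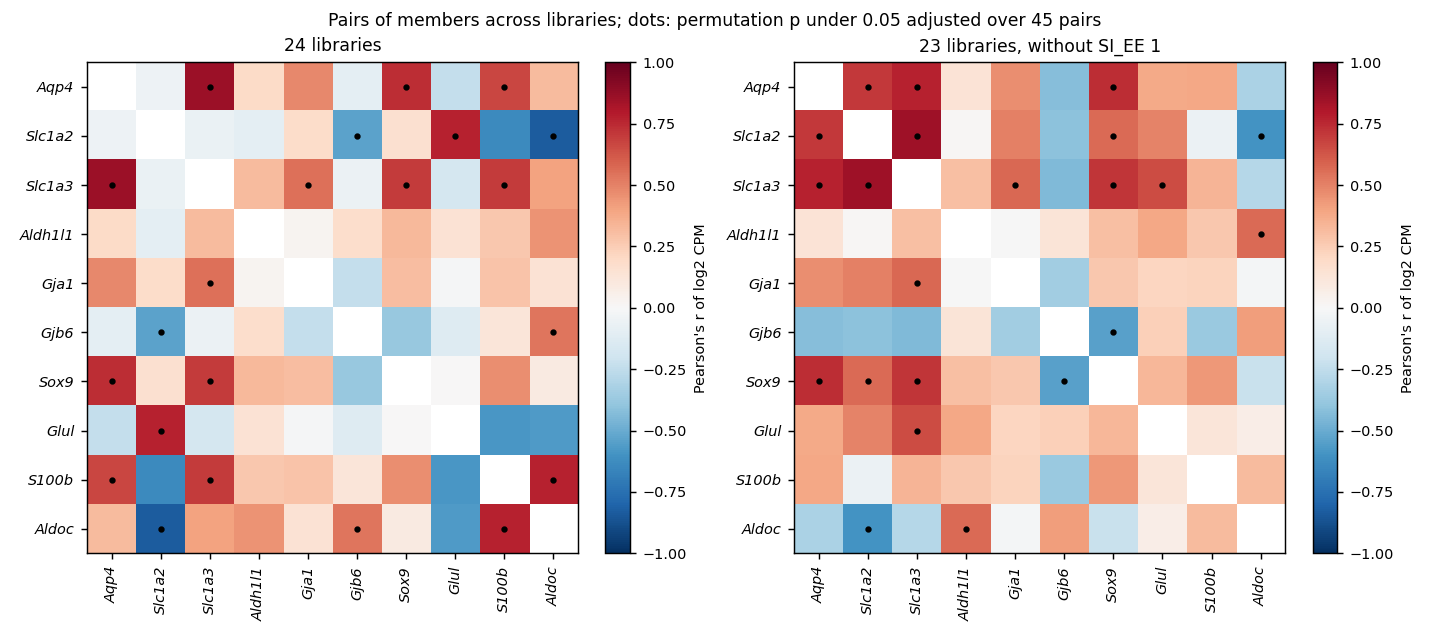
Pearson's r of log2 CPM (colour) for the 45 pairs of the 10 genes over 24 libraries (left) and over 23 without SI_EE 1 (right), with dots where the permutation p adjusted over the pairs was under 0.05. Slc1a2 and Slc1a3 are at -0.07 on the left and at 0.85 on the right.

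As a description over the 23 libraries without SI_EE 1, Slc1a3 followed the mean of the other 9 genes most closely (r = 0.78), then Glul (0.63), Aqp4 (0.62) and Sox9 (0.56). Aldoc (-0.02) and Gjb6 (-0.32) did not follow it. The mean of the standardised log2 CPM of the 10 genes was highest in GH_Con 4 (0.96) and GH_Con 1 (0.94) and lowest in SI_Con 4 (-1.0) and SI_WT 1 (-0.77). Outside the set, the genes most like that mean included Asrgl1 (r = 0.85), an asparaginase, Mlc1 (0.83), Mmp14 and Mut (both 0.81), Ctso (0.79), Slc39a12 and Atp1b2 (both 0.77), Tpcn1 (0.76) and Emp2 (0.75). Mlc1, a membrane protein of astrocyte endfeet, Slc39a12, a zinc transporter, and Atp1b2, a beta subunit of the sodium pump, belong to the list of 30 other homeostasis genes.

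**Figure D5:**
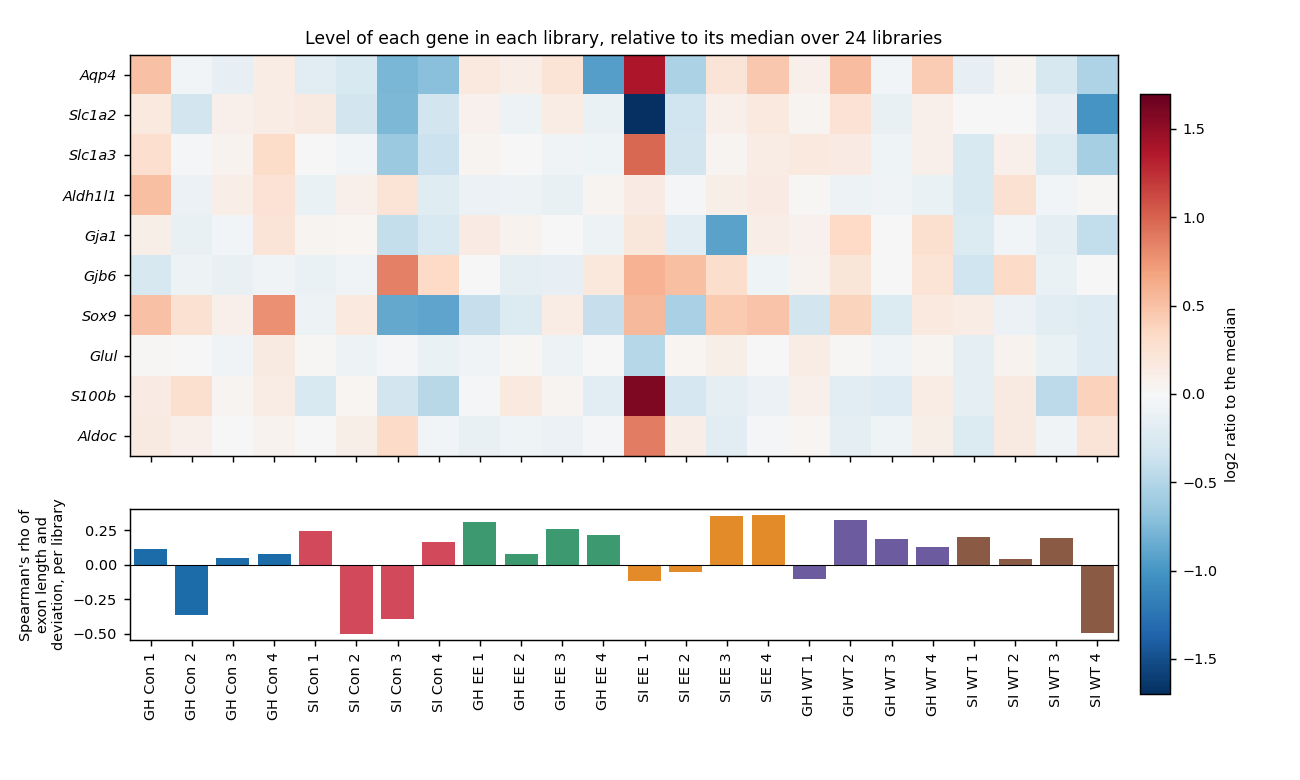
Upper panel, log2 ratio (colour) of each of the 10 genes (rows) to its median over the 24 libraries (columns). Lower panel, Spearman's rho of exon length with the deviation from the gene's mean in each library (vertical axis), coloured by group. SI_EE 1 is the darkest column of the upper panel, and 4 libraries stand at -0.36 or lower in the lower panel.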

How the data were processed

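Raw counts per gene were deposited by the authors as 1 table of whole numbers, not normalised as judged from the values. The build is mm10, per the submitters' processing notes. Aligner, counting tool and strand setting were not given in the sources used here. Symbols were found for 91.8% of entries, and entries with none hold 0.695% of reads. Positions and exon lengths are from GENCODE M21, and promoter windows from the RefSeq table. Windows were kept for 8 of the 10 genes. For Sox9 the table held none, and entries of the 10 genes on chromosome 18, where Aqp4 lies, were left out. That rule was not applied to the 32851 windows behind the motif shares.

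Counts were tested with edgeR 4.0.16 in R 4.3.3 (quasi-likelihood test, TMM factors, filterByExpr, robust, no covariate), with all 24 libraries in 1 fit and Benjamini-Hochberg adjustment over 20354 genes. CPM was computed on totals scaled by TMM factors, with a prior count of 2 for log2 CPM. Pair correlations used 100000 permutations. The tests were checked on simulated data. DESeq2 1.42.0, RLE factors, no filter, the replicate number or sex as a term, and libraries left out were alternatives. Named genes are the 10, the 2 of lowest p for any difference in each astrocyte list (Hepacam and Slc6a11, Vim and Cd44), the 10 most correlated genes (1 of which is not reported here), Gfap, and region markers. Gpr151 was chosen after its values were seen. The genes and lists were chosen with earlier results of these data known. All libraries carry 1 batch date.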

Additional observations from a re-analysis of the deposited data

Results flagged for a closer look

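Of 60 groups of 4 libraries examined (10 genes in 6 groups), 3 held a library far from its companions, with a gap to the nearest, as a share of the group's range, above Dixon's critical value. Chance flags about 1 group in 20. Aqp4 in GH_EE 4 was at 48.6 CPM (gap 0.846 of the range), beside 99.8 to 109 CPM in the other 3. Sox9 in SI_EE 2 was at 14.9 CPM (gap 0.861), beside 29.8 to 32.2 CPM. S100b in SI_EE 1 was at 288 CPM (gap 0.949), beside 78.7 to 89.5 CPM.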

How the results depend on the processing

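No member was called under any setting but 1, the fit without SI_EE 2, so that with a library left out 0 to 1 members were called in SI_EE against SI_Con. Of 1600 log2 fold changes recomputed for the 10 genes, 1477 kept their sign and 123 changed it, and the value with all libraries was larger than its SE in 4 of these. In 2 the values with both signs were larger than their SE, both of S100b in SI_EE against GH_EE: -0.19 without SI_EE 1, and -0.19 without SI_EE 1, GH_WT 2 and GH_WT 4. With a library left out in turn that value ran from -0.19 to 0.68. For any difference among the groups, 10 genes in edgeR became 1 with no filter, 1 with the replicate block, 1 with sex as a term, 2 without SI_EE 1, GH_WT 2 and GH_WT 4, 2 without the 4 libraries with low long transcripts, and 215 in DESeq2, with a range of 1 to 44 when a library was left out. For SI_Con against GH_Con (0 in edgeR) the counts were 2 without SI_EE 1, GH_WT 2 and GH_WT 4, 1 with only the groups compared, 33 in DESeq2, 3 without SI_EE 1, which is in neither group, and 0 to 1 with a library of the groups compared left out. For SI_EE against GH_EE (1) they were 0 without the 3 libraries, 0 without the 4, 0 with only the groups compared, 22 in DESeq2 and 1 to 3 with a library left out. For SI_WT against GH_WT (0) they were 12 in DESeq2 and 0 to 1, and for GH_EE against GH_Con (1) 0 without the 4, 2 with only the groups compared and 26 in DESeq2. For SI_EE against SI_Con (0) they were 1 without the 3, 1 without the 4, 174 in DESeq2 and 0 to 91. For GH_WT against GH_Con (0) they were 2 with only the groups compared and 10 in DESeq2, for SI_WT against SI_Con (0) 1 without the 4, 2 in DESeq2 and 0 to 1, and for the EE by housing interaction (0) 29 in DESeq2 and 0 to 1. The cause of these changes was not tested. On deviations from the group means 3 of the 45 pairs passed in place of 11, and 4 did with SI_EE 1 also left out, a setting chosen after seeing the data, as were the list counts without libraries. The labels tie no meaning to replicate numbers: of 60 pairs of libraries with the same number, 4 had deviations correlated above 0.1 (median -0.01), and the replicate block changed no call of a member. Libraries judged by Xist and Y-linked genes held 3 females and 1 male in GH_Con, 1 and 3 in SI_EE, and 2 of each in the other groups.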
